A study of Mus musculus and Homo sapiens with 9 samples.

Results

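The hnRNP and SR splicing factor genes are described here in 2 experiments on IRF2BP2, a transcriptional cofactor. Membership was set by name, as protein-coding rows whose symbol begins with HNRNP or consists of SRSF and a number, or the mouse spelling of either. The group itself was chosen with earlier results of these data known. The rule found 39 human genes among 64252 rows of the human table and 31 mouse genes among 43432 rows of the mouse table, 70 of 107684 rows in all. J.gamma1, a human T-cell acute lymphoblastic leukemia (T-ALL) line derived from Jurkat, carried either a control short hairpin RNA (sh-NC, 2 libraries) or a hairpin against IRF2BP2 (sh-IRF2BP2, 2 libraries). The hairpins were delivered in the lentiviral vector pLKO.1, and which of the study's IRF2BP2 hairpins was sequenced is not given in the sources used here. The mouse libraries came from magnetically sorted splenic CD3+ T cells of Vav-iCre+/-;Irf2bp2fl/fl animals (labelled Irf2bp2 KO, 2 libraries) and of controls (labelled wild type and described in the study as Vav-iCre-/-;Irf2bp2fl/fl, 3 libraries). Vav-iCre recombines throughout the hematopoietic lineage, so the deletion was not limited to T cells, and by the study's description the controls carried the floxed alleles without Cre. The labels give no age for the sequenced mice. They do not say whether libraries of 1 group came from separate cultures or separate mice, so p-values measure only the spread between these libraries.

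Heterogeneous nuclear ribonucleoproteins (hnRNPs) coat nascent transcripts and often act from silencer sequences to keep an exon out of the mRNA. SR proteins carry a domain rich in arginine and serine, bind exonic enhancers and recruit the spliceosome to nearby splice sites. Many genes of both groups limit their own mRNA by splicing in a poison exon that sends it to nonsense-mediated decay. In T cells, HNRNPLL controls the exon skipping by which activated cells switch isoforms of the phosphatase CD45 (PTPRC).

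Sequence around a short word is shown first. Of the 5 hnRNP and SR genes called lower in sh-IRF2BP2 cells, 3 held it in the 3' UTR and 1 in the coding sequence alone. Either of the 2 words below lay in the 3' UTR of 14.7% of the 34 hnRNP and SR genes tested and of 8.78% of all genes. A word in the coding sequence alone was held by 5.88% and 5.77%. The words AGGTCTA and GGTCTAA, and AGGTCTAA where they overlap, had marked genes with lower counts in earlier results of these data. Their presence in genes called lower here is therefore not independent support. They were looked up in the canonical GENCODE 44 transcript of each gene on hg38, on the sense strand only. AGGTCTA was found in the 3' UTR of SRSF8, HNRNPA3, HNRNPA0, SRSF3 and HNRNPA2B1, and in the coding sequence of SRSF7 and SRSF10. The SRSF8 sites lie 473 and 547 bases after the stop codon, at chr11:95068537-95068566 and chr11:95068611-95068640 on the plus strand. That of HNRNPA3 lies at chr2:177221923-177221952 (plus strand), that of HNRNPA0 at chr5:137751330-137751359 (minus strand), and the coding site of SRSF7 at chr2:38746701-38746730 (minus strand). The site of SRSF3 lies at chr6:36603215-36603244 (plus strand), that of HNRNPA2B1 at chr7:26191563-26191592 (minus strand), and the coding site of SRSF10 at chr1:23971183-23971212 (minus strand). Each window holds 30 bases of the mRNA strand, 5' to 3', with the word in capitals.
SRSF8 site 1: tatttacctccAGGTCTAAaaggtagtgtg
SRSF8 site 2: ttagcaaacacAGGTCTAAtctcttttgtg
HNRNPA3: ccacagtcactAGGTCTAgcatttagacct
HNRNPA0: ttcaattcctaAGGTCTAgttcttgccagt
SRSF7 coding: gatcaagatccAGGTCTAtttcacgaccaa
SRSF3: aaactttccacAGGTCTAAaaattgcttcc
HNRNPA2B1: ttcagggacacAGGTCTAgtacaagagaac
SRSF10 coding: gatcacagtctAGGTCTAggtcaaaatcta

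The files hold whole-number read counts per gene, and the libraries ranged from 26648204 to 31120236 counts in J.gamma1 and from 16668577 to 37177523 in mouse T cells. Levels are given in CPM, read counts relative to the TMM-scaled total of their library. IRF2BP2 was at 204 and 199 CPM with sh-NC and at 79.0 and 93.8 CPM with sh-IRF2BP2. Irf2bp2 was at 112, 127 and 120 CPM in the mouse controls and had 0 counts in both knockout libraries, which allows up to 0.0783 and 0.0845 CPM at 3 counts. All 12 T cell markers looked for in J.gamma1 and all 14 looked for in the mouse cells were detected.

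In J.gamma1 cells the hnRNP and SR genes were mostly at lower levels with sh-IRF2BP2, most of them by a small amount, and 5 passed the test. Of the 39 genes, 34 had enough counts to be tested. SRSF12 had 2 counts in a single library, and HNRNPCL1, HNRNPCL2, HNRNPCL3 and HNRNPCL4 had none. A gene was called where edgeR's quasi-likelihood test, adjusted by Benjamini-Hochberg over all 15819 genes, gave an adjusted p under 0.05 and the log2 fold change reached 0.5 in size. SRSF8, HNRNPA3, SRSF7, HNRNPA0 and HNRNPH3 were called lower, which is 14.7% of those tested, against 5.01% of all genes. None was called higher, against 5.46% of all genes. Without the fold threshold the counts were again 5 and 0, against 5.32% and 5.83% of all genes, and 8 of the 34 genes had an unadjusted p under 0.05, as did 27.6% of all genes. With a threshold of 1, SRSF8 and HNRNPA3 were the 2 called lower and 0 were called higher, against 2.01% and 1.66% of all genes. The log2 fold change was below 0 in 29 genes and above 0 in 5, a share of 85.3% below 0 beside 49.4% of all genes. Its median was -0.18, beside 0.01 over all genes, and 24 of the 34 genes lay within 0.25 of 0. The 39 genes together took 1.72% and 1.62% of the annotated counts with sh-NC and 1.47% and 1.37% with sh-IRF2BP2. In bulk RNA, fewer cells of a type and less RNA per cell cannot be told apart.

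**Figure D1:**
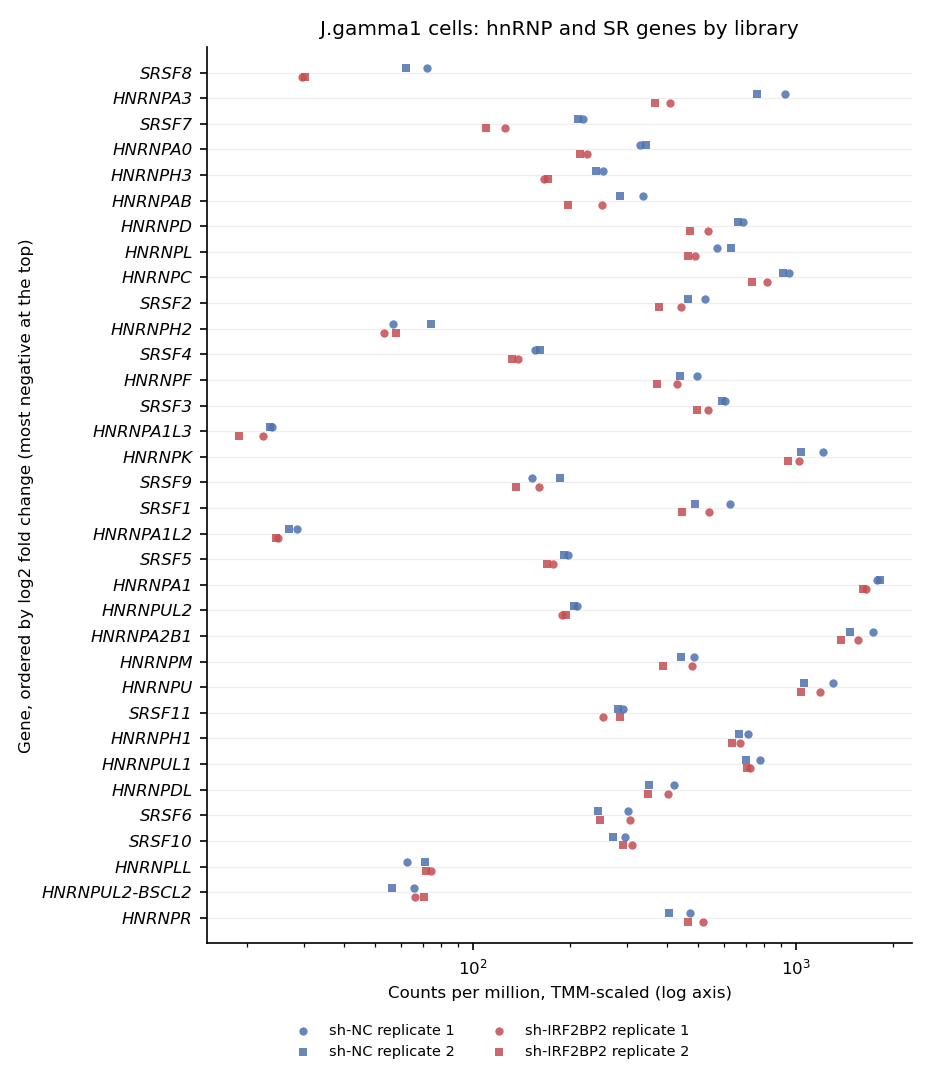
TMM-scaled CPM (log axis) of the 34 hnRNP and SR genes tested in J.gamma1 cells, 1 point per library, blue for sh-NC and red for sh-IRF2BP2, with the most negative log2 fold change at the top. Both red points lie left of both blue points in 19 genes, SRSF8, HNRNPA3 and SRSF7 with the widest gaps, and right of them in HNRNPLL and HNRNPUL2-BSCL2.

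SRSF8, an SR protein gene closely related to SRSF2 (chr11:95066919-95071225 on hg38), was at 71.9 and 62.0 CPM with sh-NC and at 29.6 and 30.3 CPM with sh-IRF2BP2. The sh-IRF2BP2 libraries lay well below both sh-NC libraries and close to each other. Its log2 fold change was -1.16 with a standard error (SE) of 0.13 (edgeR, adjusted p = 0.0027). SRSF7 (chr2:38743599-38751494), an SR protein with a zinc knuckle that also acts in mRNA export, was at 220 and 212 CPM with sh-NC and at 126 and 110 CPM with sh-IRF2BP2. The groups did not overlap, and the log2 fold change was -0.87 (SE 0.13, edgeR, adjusted p = 0.006). These were the only SR genes called among 11 tested, whose median was -0.19.

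Among the other SR genes, SRSF2, SRSF3, SRSF4 and SRSF5 had non-overlapping groups without reaching a call. SRSF2, at 523 and 466 CPM with sh-NC and 441 and 378 CPM with sh-IRF2BP2, had a log2 fold change of -0.27 (95% interval -0.59 to 0.05). SRSF3, which also helps to export mRNA, was at 606 and 592 CPM against 537 and 494 CPM, with a log2 fold change of -0.22 (95% interval -0.51 to 0.08). SRSF1, an enhancer-binding SR protein known as a proto-oncogene, overlapped between groups, at 626 and 487 CPM against 541 and 444 CPM. SRSF10, whose dephosphorylated form represses splicing, and SRSF6 were the SR genes above 0, at log2 fold changes of 0.09 and 0.02.

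Of the hnRNP genes, HNRNPA3 had the most negative log2 fold change. HNRNPA3 (chr2:177212694-177223959), of the A/B family that binds exonic silencers and also packages and transports mRNA, was at 927 and 758 CPM with sh-NC and at 409 and 366 CPM with sh-IRF2BP2. The gap between the groups was wider than the gap between the sh-NC libraries, and the log2 fold change was -1.12 (SE 0.15, edgeR, adjusted p = 0.0047). HNRNPA0 (chr5:137745651-137754363), an intronless relative that also binds AU-rich elements, was at 330 and 345 CPM against 225 and 214 CPM. Its groups were apart, with a log2 fold change of -0.62 (SE 0.12, adjusted p = 0.018). HNRNPH3 (chr10:68331174-68343193), of the F/H family that binds runs of G, was at 253 and 242 CPM against 167 and 171 CPM. These groups were apart too, with a log2 fold change of -0.55 (SE 0.12, adjusted p = 0.025). Without sh-IRF2BP2 replicate 1 the log2 fold changes of HNRNPA0 and HNRNPH3 were -0.68 and -0.55 (edgeR, adjusted p = 0.086 and 0.16), and without replicate 2 they were -0.58 and -0.57 (adjusted p = 0.13 for both). In these fits the lone sh-IRF2BP2 library is assumed to vary like the sh-NC libraries, and the SE of both genes was 0.21 or 0.22. SRSF8, HNRNPA3 and SRSF7 were called without any 1 of the 4 libraries.

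The rest of the A/B and D family lay on the same side of 0, and all 9 of its genes had a log2 fold change below 0 (median -0.20). HNRNPAB, at 337 and 286 CPM with sh-NC and 251 and 198 CPM with sh-IRF2BP2, had a log2 fold change of -0.47 (adjusted p = 0.092). HNRNPD, also called AUF1, which binds AU-rich elements and takes part in mRNA decay, was at 689 and 662 CPM against 535 and 470 CPM, with a log2 fold change of -0.43 (adjusted p = 0.08). Both had groups that did not overlap and neither was called. With DESeq2 their adjusted p-values were 0.033 and 0.015, and their log2 fold changes of -0.48 and -0.43 missed the fold threshold. HNRNPA1, the gene with the most counts per kilobase of exon among the 39 (269 CPM per kilobase with sh-NC), was at 1782 and 1825 CPM against 1653 and 1612 CPM. Its groups were apart by little, with a log2 fold change of -0.14 (95% interval -0.46 to 0.17). HNRNPA2B1 overlapped between groups, at 1737 and 1473 CPM against 1565 and 1386 CPM. HNRNPA1L2 and HNRNPA1L3, retrocopies of HNRNPA1, had 27.8 and 23.7 CPM on average with sh-NC, and reads of such near copies may have been split with the parent gene.

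Of the 4 F/H genes, all had a log2 fold change below 0, from -0.55 for HNRNPH3 to -0.08 for HNRNPH1, and HNRNPF was at -0.22. HNRNPL, which binds CA repeats, was at 573 and 632 CPM against 488 and 464 CPM. These groups did not overlap, and the log2 fold change was -0.34 (adjusted p = 0.13, 95% interval -0.64 to -0.04). HNRNPC, which binds runs of U, and HNRNPK, which binds runs of C through KH domains, had log2 fold changes of -0.27 and -0.19 with groups apart. HNRNPM, HNRNPU, HNRNPUL1 and HNRNPDL overlapped between groups and lay between -0.10 and -0.04.

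Only 5 of the 34 genes lay above 0, and none of these was called. HNRNPLL, the regulator of CD45 splicing, was at 62.6 and 71.1 CPM with sh-NC and at 74.3 and 71.7 CPM with sh-IRF2BP2. The groups were barely apart, and its log2 fold change was 0.13 (adjusted p = 0.54, 95% interval -0.15 to 0.40). HNRNPR, an RNA-binding relative of SYNCRIP, was at 470 and 405 CPM against 518 and 464 CPM. Its groups overlapped, and its log2 fold change was 0.17 (95% interval -0.15 to 0.49). HNRNPUL2-BSCL2, a read-through transcript that shares exons with HNRNPUL2, had 66.0 and 56.4 CPM against 66.3 and 70.8 CPM, with a log2 fold change of 0.16. HNRNPUL2 itself lay at -0.12, and counts between these overlapping genes are uncertain. Over all 34 genes, the groups did not overlap in the lower direction in 19 (28.7% of all genes did so) and in the higher direction in 2 (29.6% of all genes).

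The word AGGTCTA was present in the 3' UTRs of 3 of the 5 genes called lower and in the coding sequence of SRSF7. Of the 34 genes tested, 5 (14.7%) had either word in the 3' UTR, and these had a median log2 fold change of -0.62, with SRSF8, HNRNPA3 and HNRNPA0 called lower. HNRNPA2B1 and SRSF3 also held it and had log2 fold changes of -0.12 and -0.22. The 29 without it in the 3' UTR had a median of -0.16. Of these, SRSF7, with the word in its coding sequence, and HNRNPH3, with none, were called lower. SRSF10 also held it in the coding sequence and was not called. The 27 genes with neither word in the 3' UTR or coding sequence had a median of -0.16, with 23 below 0 and 1 called (3.70%).

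The same split over all 12547 protein-coding genes whose 3' UTR reached 50 bases gave a median of -0.13 for the 1102 genes (8.78%) with a word in the 3' UTR and 0.01 for the 11445 without. Of the former 18.7% were called lower and 4.45% higher, and of the latter 4.72% lower and 6.74% higher. The words were taken from earlier results of these same counts. A difference in this direction was thus built into the split and gives no independent support. Genes with a word in the coding sequence and none in the 3' UTR were called lower in 9.81%, and genes with neither in 4.37%. Of the hnRNP and SR genes with neither, 1 of 27 was called lower. Median log2 fold changes were 0.015 over all genes with neither and -0.16 over these 27. The genes with a word also had longer 3' UTRs, with medians of 3252 and 1198 bases. For the hnRNP and SR genes these medians were 3611 and 1324 bases. The part of the word or of 3' UTR length in the lower counts was not tested.

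**Figure D2:**
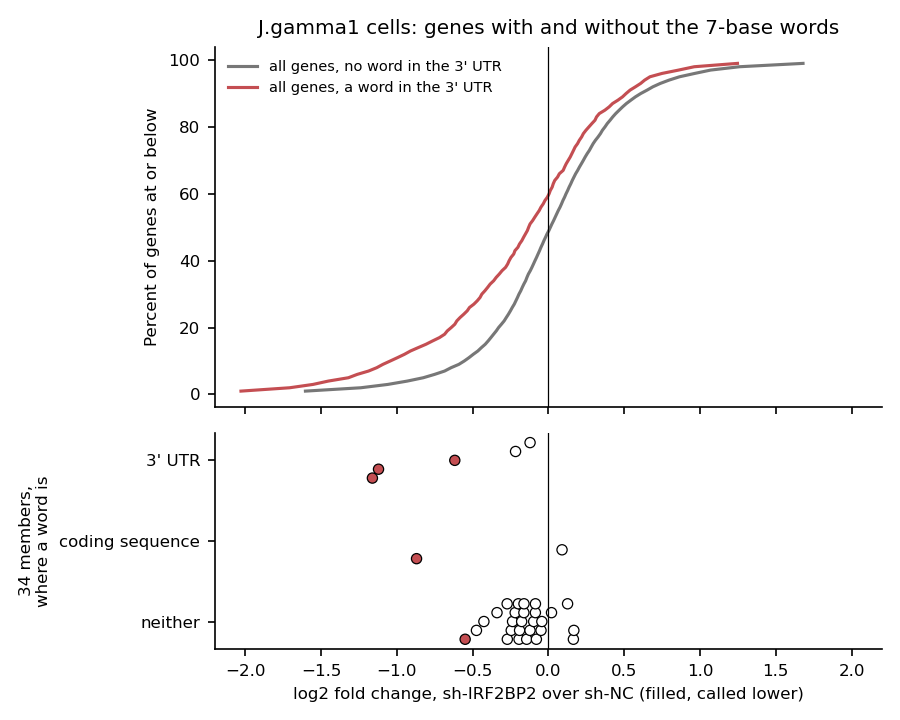
Upper panel, cumulative percent of all genes (y axis) by log2 fold change of sh-IRF2BP2 over sh-NC in J.gamma1 cells, for genes with (red) and without (grey) AGGTCTA or GGTCTAA in the 3' UTR. Lower panel, the 34 hnRNP and SR genes by where a word lies, each point a gene and filled points called lower: 3 of 5 with a word in the 3' UTR, 1 of 2 with a word in the coding sequence alone and 1 of 27 with neither.

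In mouse T cells no hnRNP or SR gene passed the test in either direction. All 31 had enough counts, and edgeR's quasi-likelihood test called 0 lower and 0 higher, against 0.15% and 2.68% of 15350 genes. The same 0 and 0 held at a threshold of 1, which 0.111% of all genes passed in the lower direction and 2.47% in the higher. At an unadjusted p under 0.05 there was 1 gene, Hnrnpll, against 16.2% of all genes. DESeq2 called Hnrnpll higher and none of the 31 lower, and called 921 of all 15350 genes higher and 220 lower. Log2 fold changes were below 0 in 14 genes and above 0 in 17, with a median of 0.01 beside -0.02 over all genes, and 30 of 31 lay within 0.25 of 0. The genes together took 1.14%, 1.14% and 1.15% of counts in the controls and 1.17% and 1.24% in the knockouts. The groups did not overlap in the lower direction in 4 genes (17.8% of all genes) and in the higher direction in 3 (18.2% of all genes).

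**Figure D3:**
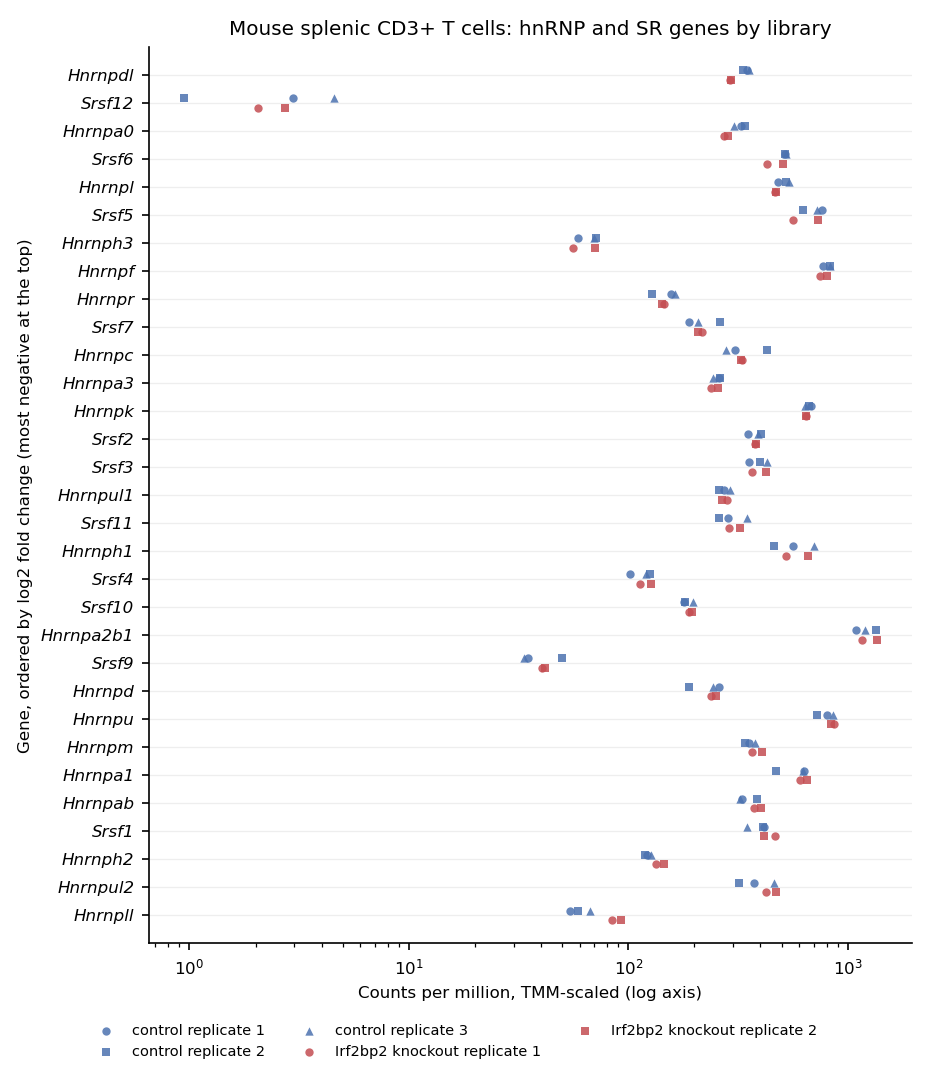
TMM-scaled CPM (log axis) of the 31 hnRNP and SR genes in splenic CD3+ T cells, 1 point per library, blue for the 3 controls and red for the 2 Irf2bp2 knockouts, with the most negative log2 fold change at the top. Blue and red points overlap in most rows, and Hnrnpll at the bottom has both knockout points to the right of all control points.

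Hnrnpll was at 54.2, 58.7 and 66.9 CPM in the controls and at 84.4 and 92.4 CPM in the knockouts. Both knockout libraries lay above all 3 controls. Its log2 fold change was 0.56 (SE 0.14, adjusted p = 0.097 from edgeR and 0.013 from DESeq2), and ranged from 0.47 to 0.64 when 1 library was left out. Without control replicate 1, 2 or 3 the adjusted p from edgeR was 0.25, 0.083 and 0.064. On simulated data of the mouse design DESeq2 made 59 false calls and edgeR 7. Hnrnpul2, a U-type hnRNP gene, was at 375, 319 and 459 CPM in controls and 426 and 470 CPM in knockouts, which overlapped, with a log2 fold change of 0.22. That value was 0.12 without control replicate 2, 0.36 without control replicate 3 and 0.13 without knockout replicate 2. Hnrnph2, of the F/H family, was at 122, 119 and 127 CPM against 134 and 145 CPM. Its groups were apart, with a log2 fold change of 0.18 (adjusted p = 0.52).

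At the other end, Hnrnpdl, a relative of Hnrnpd, was at 347, 332 and 355 CPM in controls and at 290 and 295 CPM in knockouts. The groups were apart, with a log2 fold change of -0.24 (edgeR, adjusted p = 0.41). Hnrnpa0 was at 326, 340 and 303 CPM against 272 and 285 CPM, also apart, with a log2 fold change of -0.21 (adjusted p = 0.48). Srsf6, an SR protein, was at 516, 518 and 520 CPM against 430 and 504 CPM. The knockout replicate 1 library was farther from the controls, and the log2 fold change was -0.15 (adjusted p = 0.66), or -0.06 without that library. Hnrnpl, at -0.13, and Srsf1, at 0.17, also had groups that did not overlap.

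Of the genes called lower in J.gamma1, Hnrnpa3 was at 258, 260 and 244 CPM in mouse controls and at 239 and 257 CPM in knockouts. The groups overlapped, with a log2 fold change of -0.04 (95% interval -0.32 to 0.25), beside an interval of -1.47 to -0.77 for HNRNPA3 in J.gamma1. Srsf7 overlapped as well, at 189, 262 and 208 CPM against 217 and 207 CPM, with a log2 fold change of -0.05. Hnrnph3 lay at -0.08, and SRSF8 has no namesake among the 31 mouse genes. The tables were fitted apart, and the difference between the experiments was not tested.

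Across the 30 names present in both tables, 11 had a log2 fold change below 0 in both, 15 were below 0 in J.gamma1 and above 0 in mouse T cells, 2 were above 0 in both and 2 were above 0 in J.gamma1 alone. HNRNPA0 and HNRNPL were the names with groups apart in the lower direction in both experiments. HNRNPLL was the name with groups apart in the higher direction in both, and 0 names had groups apart in opposite directions. Of all genes, 28.7% in J.gamma1 and 17.8% in the mouse had groups apart in the lower direction, and 29.6% and 18.2% in the higher. Below 0 were 49.4% and 52.1% of all genes. Shares of all genes apart, or below 0, in both experiments were not worked out, so no excess over all genes can be read from these names. Pearson's r of the log2 fold changes over the 30 names was 0.27. For the control groups' levels per kilobase of exon (log2) r was 0.62. Exon length here covers all annotated exons of a gene, so these levels and their order also depend on the annotation. It was 22512 bases for HNRNPU and 11599 for Hnrnpu, and 8704 for HNRNPR and 22199 for Hnrnpr. Genes of 1 table share libraries and are not independent points. By level per kilobase of exon, HNRNPA1, HNRNPK and SRSF2 came first in sh-NC cells (269, 198 and 166 CPM per kilobase), and Hnrnpf, Hnrnpa2b1 and Hnrnpa1 came first in mouse controls (266, 184 and 183 CPM per kilobase). HNRNPLL was the last of the 34 tested in J.gamma1, at 11.3 CPM per kilobase, and Hnrnpll was at 5.13 CPM per kilobase in the mouse, above Srsf12 alone (0.898).

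**Figure D4:**
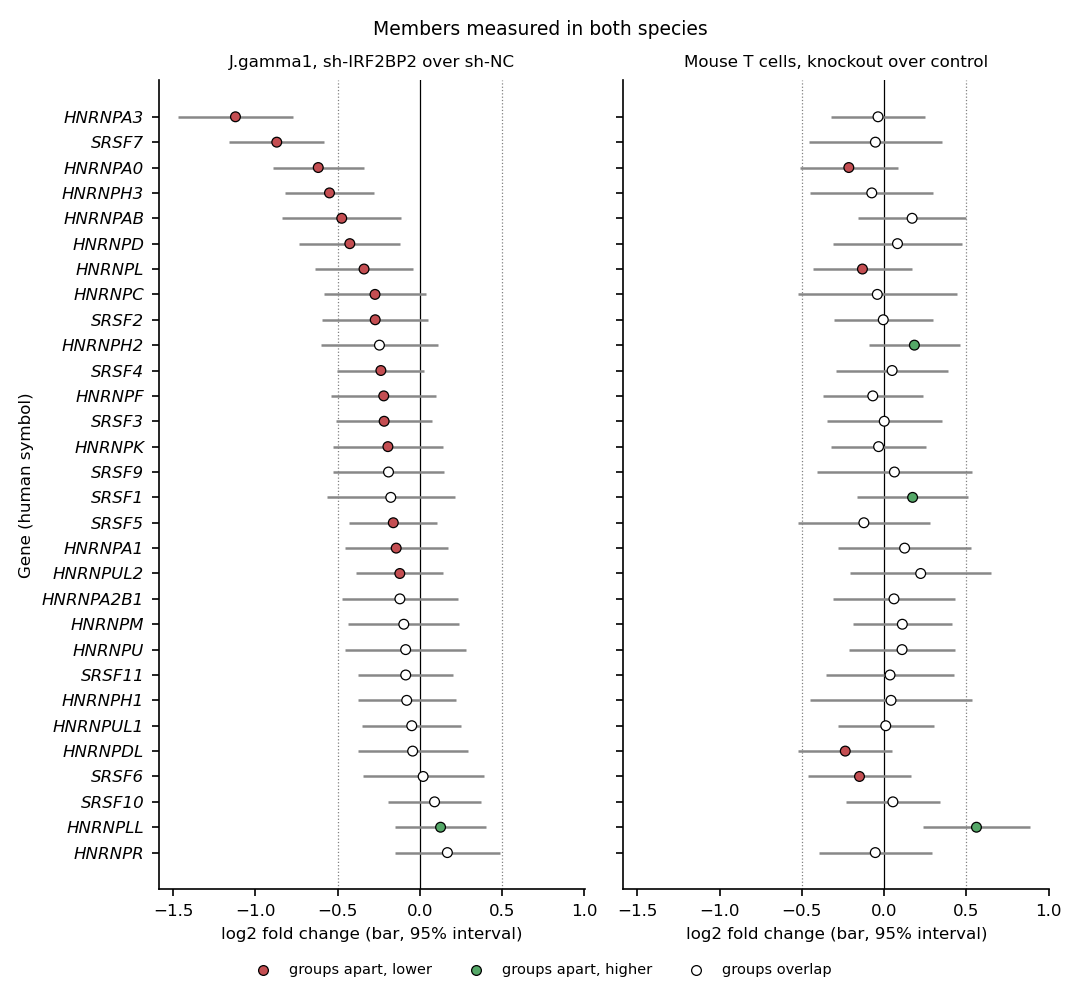
Log2 fold change (point) with its 95% interval (bar) of the 30 hnRNP and SR genes named in both tables, J.gamma1 at the left and mouse T cells at the right, from separate fits. Filled points mark groups that do not overlap (red lower, green higher). The J.gamma1 points reach -1.12 for HNRNPA3, while the mouse points lie within 0.25 of 0 except Hnrnpll at 0.56, and dotted lines mark 0.5 in size.

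Levels of other genes moved beside these results. In J.gamma1 the 12 proliferation genes looked for summed to 5902 to 6040 CPM with sh-NC and 4701 to 4930 CPM with sh-IRF2BP2, with 3 called lower (MCM3, PCNA and CDK1) and none called higher. The 12 T cell markers summed to 1827 to 2047 and 1808 to 1929 CPM, with 1 called lower and 3 higher. In the mouse the order for proliferation was opposite, with sums of 764 to 1019 CPM in controls and 1958 to 2156 CPM in knockouts and 8 of 12 genes called higher. The 14 T cell markers summed to 6098 to 7046 CPM in controls and 4580 to 4887 CPM in knockouts, with Cd8b1 called lower.

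Markers of other cells were also present in the mouse sorts. The 11 erythroid markers detected summed to 676 to 2331 CPM in controls and 4639 to 6484 CPM in knockouts, with 5 called higher. The 5 plasma cell markers summed to 411 to 1149 and 1134 to 1496 CPM, with 1 called higher. B cell markers (6 genes) summed to 28.5 to 235 and 26.2 to 83.0 CPM, and myeloid markers (6 genes) to 36.4 to 338 and 63.99 to 108 CPM, with none called in either list. No marker detected was at 0 in all libraries, and the part of these genes in the hnRNP and SR results was not tested.

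The other genes of the splicing pathway were read from 9 lists. In J.gamma1, 165 of their genes were tested, with 6 called lower, 2 called higher and a median log2 fold change of -0.10, against 5.01% and 5.46% of all genes called. The U2 snRNP, which recognizes the branch point, had 17 of 18 genes below 0 (median -0.21) and 3 called lower. SF3A3, a subunit of its SF3A complex, was at 232 ± 15.6 CPM with sh-NC and 140 ± 10.7 CPM with sh-IRF2BP2 (SD, n = 2), a log2 fold change of -0.73 (adjusted p = 0.012, edgeR). SF3B6, which lies near the branch point adenosine, was at 79.6 ± 3.77 and 51.3 ± 0.0852 CPM, a log2 fold change of -0.64 (adjusted p = 0.014, edgeR). The third was DDX46, a helicase of U2 assembly, at -0.54. In the U1 list SNRPA, the U1 A protein, was the 1 gene called lower, at -0.50. DDX46, SNRPA and ESRP1 are named after their values were seen.

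The Sm and LSm ring proteins had 15 of 16 genes below 0 with a median of -0.33, and none was called. The exon junction complex had 8 of 10 below 0 (median -0.27), the tri-snRNP 13 of 18 (median -0.10) and the PRP19 complex with the catalytic helicases 11 of 20 (median -0.08), also with none called. Genes for nonsense-mediated decay lay on the other side, with 10 of 12 above 0 and a median of 0.29, and none was called at the fold threshold. The kinases, phosphatase and carriers of SR proteins had 8 genes below and 8 above 0.

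Among 48 other splicing regulators tested, 2 were called in each direction and the median was 0.03. PTBP3, a polypyrimidine tract-binding protein, was at 350 ± 47.7 CPM with sh-NC and 85.9 ± 1.16 CPM with sh-IRF2BP2 (SD, n = 2), a log2 fold change of -2.03 (adjusted p = 0.0007, edgeR). Of the 8 genes called in these lists, PTBP3 alone has either word in its 3' UTR. PTBP3 and DDX46, called lower, and CELF1, called higher, hold one in the coding sequence. ESRP1, an epithelial splicing regulator at 11.2 CPM with sh-NC, was also called lower, at -0.75. CELF1, which binds GU-rich elements, was called higher at 192 ± 25.6 and 310 ± 18.7 CPM (log2 fold change 0.69), as was QKI, which binds ACUAA-type elements, at 107 ± 7.64 and 170 ± 0.5 CPM (0.66). In the mouse, 162 genes of the same lists were tested, edgeR called none, and the median was -0.05.

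**Figure D5:**
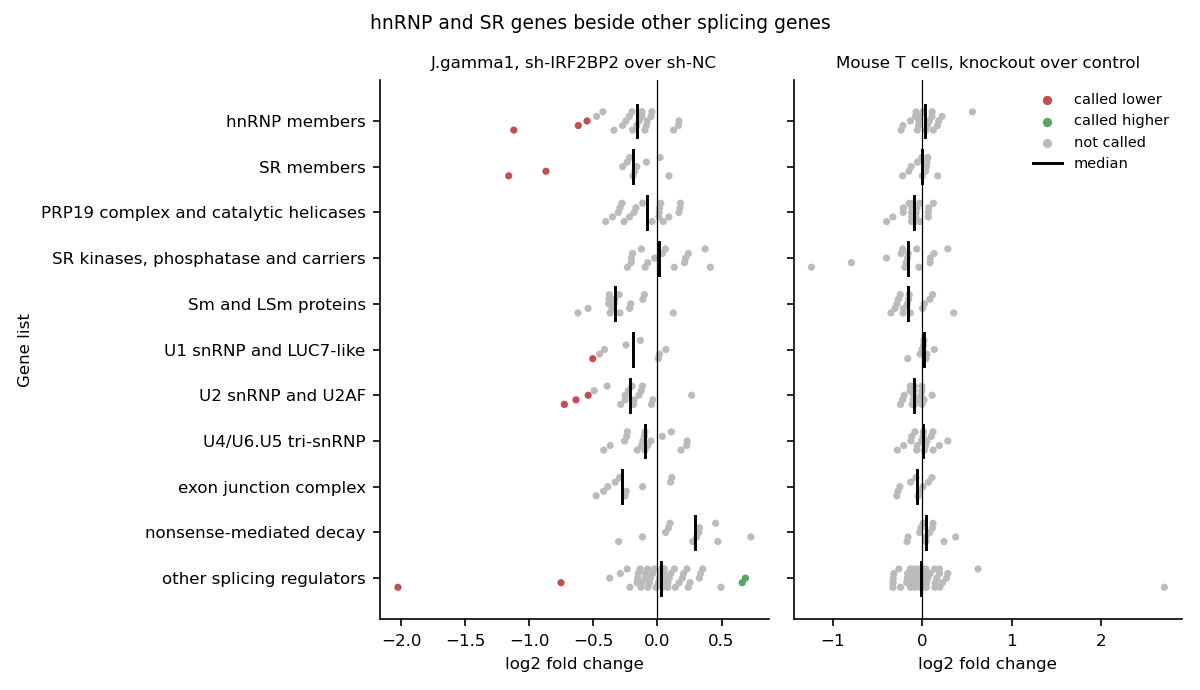
Log2 fold change of each gene (point) in the hnRNP and SR groups and in 9 lists of other splicing genes, J.gamma1 at the left and mouse T cells at the right, on separate horizontal scales. Vertical bars are list medians, red points were called lower and green points higher. In J.gamma1 the medians run from -0.33 for Sm and LSm proteins to 0.29 for nonsense-mediated decay, and in the mouse no point is coloured.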

How the data were processed

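RNA from 9 libraries was analysed, 4 of J.gamma1 cells and 5 of mouse splenic CD3+ T cells. Libraries were made with the Illumina TruSeq RNA Sample Prep Kit. Per the submitters' processing notes, reads were handled with HISAT2 2.2.0 and StringTie, on hg38 and mm10. The authors deposited whole-number counts per gene, without normalization. How StringTie's estimates became counts, and whether strand was used, is not given in the sources used here, so counts of overlapping genes are uncertain.

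Rows without an annotated identifier (97.9% to 98.1% of human and 99.8% of mouse counts were annotated) were left out. The tables were fitted separately with edgeR 4.0.16 (R 4.3.3; TMM, filterByExpr, quasi-likelihood test, Benjamini-Hochberg over all genes, residual degrees of freedom 2 and 3). Both used the calling thresholds of the report. Intervals are 95%. DESeq2 1.42.0, other scalings and filters, a replicate block and each library left out were alternatives. Counts are of reads, so the floor of 3 counts covers counting error only. 

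The genes and lists were chosen with earlier results of these data known. Full values were given for called genes, for the 3 rises and 3 falls of largest size per table at 10 CPM or more, and for HNRNPLL and HNRNPA3, and of other lists for the 3 called genes of largest change per direction at 10 CPM or more. Both designs were tested on simulated data, in which 200 genes were changed. Here a gene passed at adjusted p under 0.05 alone, without the fold threshold used for calls. For J.gamma1, edgeR found 11 of 67 genes changed by 0.5, 54 of 67 by 1 and 65 of 66 by 2 (log2). Beside these it made 22 false calls, with 15819 genes tested. For the mouse it found 1 of 67, 29 of 67 and 58 of 66, and made 7 false calls beside these, with 15350 genes tested. In both designs false calls were a larger share of the calls than the adjusted p threshold, more so in J.gamma1.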

Additional observations from a re-analysis of the deposited data

How the results depend on the processing

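The count of hnRNP and SR genes called lower in J.gamma1 was 5 with DESeq2, with RLE or upper-quartile scaling, with either other filter, with all deposited rows, with counts divided by 2 and without a fold threshold, and 0 genes were called higher under each. It was 2 (SRSF8 and HNRNPA3) at a log2 fold threshold of 1. Leaving out 1 library gave 3 to 6 called lower: 3 without either sh-IRF2BP2 library, where HNRNPA0 and HNRNPH3 were lost with log2 fold changes of -0.68 to -0.55, the lone library being assumed to vary like the other group, and 6 without sh-NC replicate 2, where HNRNPAB was added. The median log2 fold change ranged from -0.28 (without sh-IRF2BP2 replicate 1) to -0.14 (without sh-IRF2BP2 replicate 2), and was -0.24 with upper-quartile scaling, where the median of all genes was -0.05. In the mouse, DESeq2 called 1 gene higher (Hnrnpll) in place of 0. The mouse median ranged from -0.056 (without knockout replicate 2) to 0.062 (without knockout replicate 1), and Hnrnpa3 went from -0.04 to 0.0086 with at least 10 counts required in every library. Of the alternatives for the genes given in full under the naming rule, which leaves out HNRNPAB and HNRNPD, and with the fold thresholds not counted, 181 kept direction and call, 4 lost a call (HNRNPA0 and HNRNPH3, as above), 1 gained one (Hnrnpll) and 1 changed sign. The cause of these changes was not tested.

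With the replicate block, 5 genes were again called lower in J.gamma1 and 0 higher (median -0.18), and 0 in the mouse. Over all genes the block gave 1174 lower and 1293 higher in J.gamma1, against 793 and 864, and 53 and 443 in the mouse, against 23 and 412. Control replicate 3 of the mouse has no knockout of the same number, so with the block it adds nothing to the fold change. The mouse block fit is thus close to leaving that library out (Hnrnpll 0.65 with the block, 0.64 without control replicate 3). Deviations of same-numbered libraries correlated at 0.23 in J.gamma1 and at 0.15 and -0.16 in the mouse, and nothing in the labels ties the numbers together. Over all genes, calls lower and higher in J.gamma1 were 396 and 319 with any gene of at least 1 count, 318 and 262 at a fold threshold of 1, and 419 to 1143 and 418 to 1608 with 1 library left out. In the mouse they were 220 and 921 with DESeq2, 37 and 492 with counts divided by 2, and 1 to 65 and 6 to 594 with 1 library left out. The lowest mouse counts, 1 and 6, were without control replicate 1. Of the simulated mouse changes of 0.5, edgeR found 1 of 67. Detection at the levels of the hnRNP and SR genes was not tested separately. Some of their 95% intervals in the mouse lay within 0.5 of 0, such as that of Hnrnpa3 (-0.32 to 0.25). Others reached past 0.5, such as that of Hnrnpa1 (-0.28 to 0.53). Protein sequences were not analysed here.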

Other observations

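The human table also holds 138 other rows with an HNRNP or SRSF type symbol, pseudogenes and noncoding genes that the choice by protein-coding type left out. Their summed level was 85.5 CPM, 0.553% of the 15460 CPM of the protein-coding genes, and 11 rows averaged at least 1 CPM. Of 13 tested, edgeR called 2 lower and 0 higher. HNRNPA3P10, a pseudogene of HNRNPA3, was at 2.43 ± 0.981 CPM with sh-NC and 0.648 ± 0.0909 CPM with sh-IRF2BP2 (SD, n = 2), for a log2 fold change of -1.90. HNRNPA1P21, a pseudogene of HNRNPA1, was at 2.65 ± 0.0346 and 0.358 ± 0.0693 CPM, which gave a log2 fold change of -2.87. The uncalled HNRNPA3P6 (-1.12) and HNRNPA3P5 (-1.22) had log2 fold changes close to the -1.12 of HNRNPA3, and reads of such near copies cannot be told apart from those of the parent gene with certainty. HNRNPA1P7, with the highest level of these rows, was at 34.3 ± 0.273 and 31.2 ± 0.0312 CPM (log2 fold change -0.14).

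The letters CACGTG, the E-box bound by MYC with its partner MAX, were looked up in promoter windows of 250 bases before to 50 bases after the start, on hg38 with GENCODE 44 for the human genes. CACGTG reads the same on both strands. It was present in 5 of 34 hnRNP and SR genes (14.7%), namely HNRNPA3, HNRNPD, HNRNPH2, HNRNPM and HNRNPDL, against 10.4% of 12738 genes. CACGTG holds a CG, and the median count of CG per window was 30.5 in these 34 genes and 27 over all genes. The genes with it had a median log2 fold change of -0.25 in J.gamma1 and those without it -0.18, and over all genes these medians were -0.03 and 0.01. In RefSeq mouse windows (GRCm38.p6) it was present in 5 of 29 genes matched by symbol (17.2%), against 11.6% of 10032 genes. A mouse gene counted if any of its windows held it, with 41 windows for the 29 genes and 12830 for the 10032. Median CG counts were 32 and 21, and the part of CG content or window number in these shares was not tested. There the medians ran the other way, at 0.08 with it and -0.002 without it, and over all mouse genes they were -0.03 with and without it. The human window is shown for HNRNPA3, the one called gene that holds it, at chr2:177212711-177212740 (plus strand), with the E-box in capitals.
HNRNPA3 promoter: cggaaaacgcgtCACGTGacgactggcccc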
